A study of Mus musculus with 7 samples.

Results

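The genes described here break down the branched-chain amino acids leucine, isoleucine and valine, carry propionate into the citrate cycle, and use ketone bodies. A list of 28 genes was set by function, with earlier results of these data known. Each gene was found on the array through the RefSeq transcript of its probe. All 28 had a probe above background, among 13696 named genes and 22341 features tested in all. RNA of the heart apex from 7 male mice of the C57BL/6 strain was read on 1-colour Agilent microarrays. All 7 animals were homozygous for a floxed p38α gene (Mapk14, a stress-activated kinase) with loxP sites around exons 2 and 3. The 3 knockout (KO) animals were also heterozygous for MerCreMer, a Cre recombinase that tamoxifen switches on, here expressed from the α-MHC promoter of cardiomyocytes; for the 4 controls the labels list only the floxed gene. Every animal, control or KO, was given 500 µg hydroxytamoxifen per day for 10 days from 6 weeks of age, and then angiotensin II, a peptide that raises blood pressure, from osmotic minipumps over 48 hours (1.5 mg/kg per day); hearts were taken at 3 months. With Cre listed only in KO hearts, its own effect and that of the deletion cannot be told apart, and no group went without angiotensin II.

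Branched-chain amino acids are first transaminated to ketoacids, and the branched-chain ketoacid dehydrogenase of the mitochondrial matrix then commits them to oxidation. The dehydrogenase is switched off when its kinase phosphorylates it and on when a phosphatase removes the phosphate. Valine and isoleucine give propionyl-CoA, which a biotin enzyme and a cobalamin enzyme convert to succinyl-CoA, while leucine and isoleucine give acetyl-CoA. The healthy heart oxidises ketone bodies and branched-chain amino acids beside its main fuel, fatty acids.

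All 7 arrays lay on 1 slide, with 46.0% to 49.6% of 55681 probes well above background per array. Hearts are treated as coming from different animals, which the labels do not state in so many words; p-values measure the spread between these hearts. Of the 18 cardiomyocyte markers in the list used, all were well above background on every array. Mapk14 did not differ past the threshold (log2 difference 0.22, adjusted p = 0.202 by limma); whether its probes cover the deleted exons is not known here. A probe of Esr1, whose ligand-binding part MerCreMer contains, was well above background on the 3 KO arrays and on none of the 4 control arrays. Its log2 signal was uneven, at -0.82, 0.07 and 4.5 in KO hearts 1 to 3. The other Esr1 probes were well above background on no array.

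The genes were lower in KO hearts as a group. At an adjusted p of 0.05, 21 of 28 fell and 0 rose, whereas 15.0% of all features were called lower and 10.2% higher in KO; the count at an unadjusted p under 0.05 was 25 lower and 1 higher. The calls came from limma over all features, with Benjamini-Hochberg adjustment. Levels are given as log2 signal relative to the array's 75th percentile, and differences as KO minus control on the same log2 scale. The median difference was -1.0 over the 28 genes and -0.06 over all features. As the list was chosen with earlier results of these data known, its values beside those of all features are a description. The falls that passed ran from 1.68-fold to 3.61-fold, with adjusted p from 0.0124 to 0.0497, and 14 of them were at least 2-fold (6.23% of all features were both called and at least 2-fold lower). All 3 KO hearts lay below all 4 controls in 24 of the 28 genes, against 21.4% of features. Dbt, Ppm1k and Hsd17b10 overlapped between groups with differences below 0, and Bcat1 overlapped with a difference above 0. On whole-tissue RNA, fewer cells of a type and less RNA per cell cannot be told apart.

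**Figure D1:**
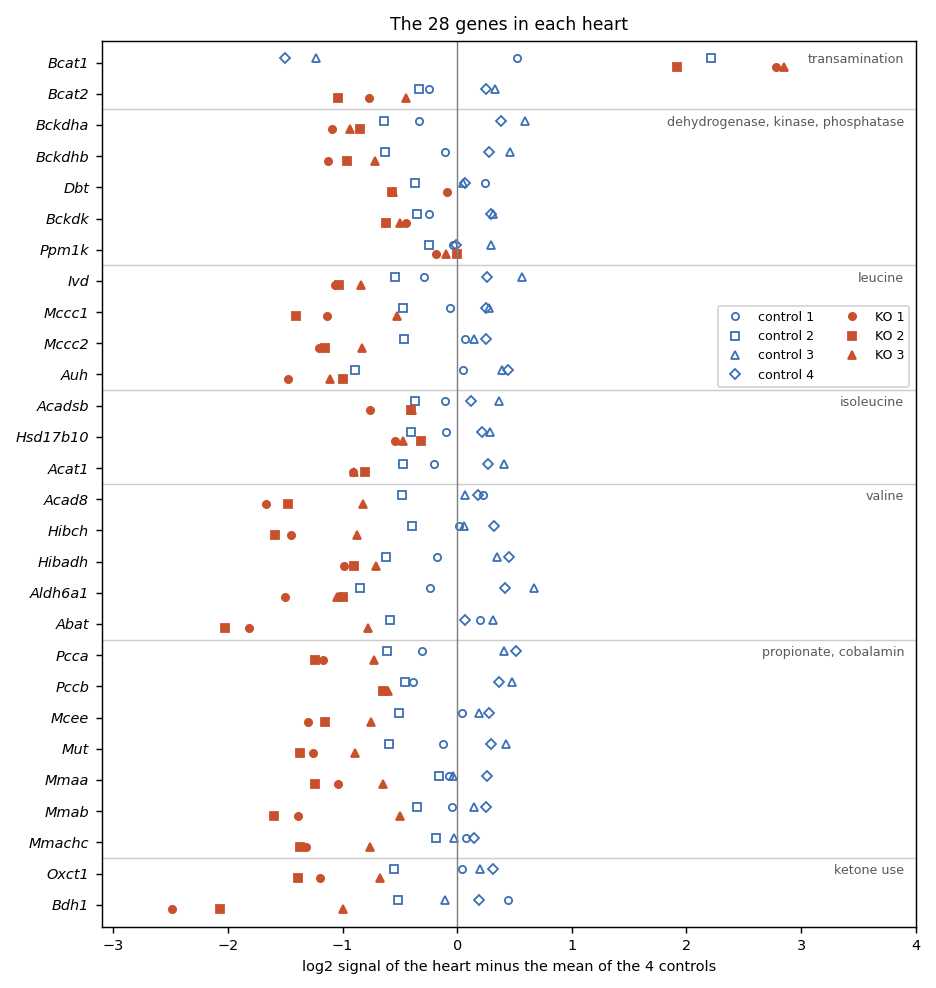
Log2 signal of each of the 28 genes in each heart, minus the mean of the 4 controls (x axis); open blue symbols are controls, filled red symbols KO hearts, and symbol shape gives the replicate. KO hearts lie left of all controls in 24 genes; Bcat1 is the gene with KO hearts to the right.

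The number of calls moved with single hearts, and the direction did not. By limma, leaving out KO 1 left 0 genes called lower (22 at an unadjusted p under 0.05), leaving out KO 2 left 2, and leaving out control 4, 3 or 1 left 7, 9 or 10. Without KO 3 the count was 15, and without control 2 it was 25. The share of all features called lower moved as well. It was 0.219% without KO 1, 3.77% without KO 2, and 6.48%, 7.79% or 8.91% without control 4, 3 or 1. Without KO 3 that share was 14.6%, and without control 2 it was 18.5%. In each of these refits, the 21 genes called with all hearts kept a difference below 0. Control 2 was the lowest of the controls in 27 of the 28 genes, Bcat1 excepted, where control 4 was lowest and control 2 highest. KO 3 was the highest KO heart in 20 genes. The mean of the gene-centred log2 values over the 28 genes was 0.32, -0.03, 0.59 and 0.56 in controls 1 to 4 and -0.61, -0.62 and -0.22 in KO hearts 1 to 3. The arrays of controls 1 and 2 and KO 1 lay in row 1 of the slide, and those of the other four hearts in row 2. In 22 of the 28 genes both row 2 controls lay above both row 1 controls. The difference was below 0 for 27 of 28 genes within each row, with a median of -0.82 in row 1 (1 KO heart) and -1.21 in row 2 (2 KO hearts). These orders of hearts and within-row directions were not counted over all features. Whether they are particular to these genes is not known. With the row as a block 25 genes fell and 1, Bcat1, rose, beside 21.6% of all features called lower and 3585 of 22341 called higher.

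The isoenzymes of the opening step had fitted differences of opposite sign, and of these only Bcat2 passed. Bcat2 encodes the mitochondrial branched-chain aminotransferase, the form of heart and skeletal muscle. It read 2.86, 2.77, 3.44 and 3.36 in controls 1 to 4 and 2.34, 2.07 and 2.66 in KO hearts 1 to 3, with all KO hearts below all controls. Bcat2 fell by 0.75 ± 0.22 (SE, adjusted p = 0.0447); centred on the array median instead, it did not pass (-0.66, adjusted p = 0.0567). Bcat1 encodes the cytosolic form, better known from brain and from dividing or activated cells. Its brightest probe read -2.6, -0.92, -4.36 and -4.63 in the controls and -0.34, -1.21 and -0.28 in the KO hearts, so control 2 lay within the KO range and controls 3 and 4 were not well above background. The difference of 2.52 ± 0.84 (SE, adjusted p = 0.0610) did not pass. The probe of Bcat1 that was well above background on all 7 arrays read -3.17, -1.81, -3.39 and -3.39 in the controls and -0.98, -0.96 and -1.57 in the KO hearts and differed by 1.77 (adjusted p = 0.0204 when probes are tested singly). The remaining Bcat1 probe differed by 2.07 (adjusted p = 0.0747). Bcat1 passed as a gene with normexp background correction (1.29, adjusted p = 0.0207), with the mean over its probes (2.12, adjusted p = 0.0454) and without control replicate 2 (3.25, adjusted p = 0.0104).

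**Figure D2:**
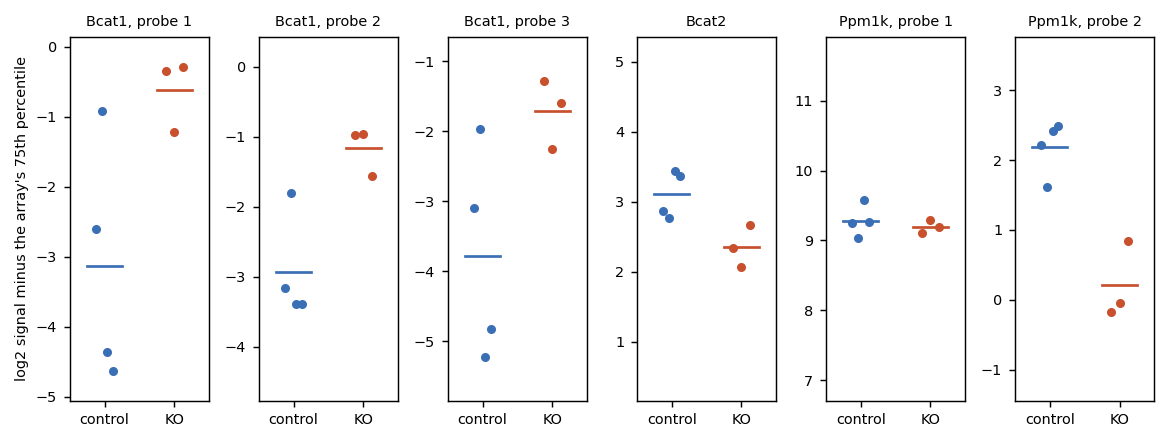
Log2 signal minus the array's 75th percentile in each heart for every probe of Bcat1, Bcat2 and Ppm1k, numbered from the brightest by mean over all hearts; dots are hearts, lines group means (4 controls, 3 KO), and every panel spans the same log2 range. Bcat2 and the dimmer Ppm1k probe are lower in KO, the Bcat1 probes are higher, and the brighter Ppm1k probe overlaps between groups.

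The decarboxylating and transacylating subunits of the ketoacid dehydrogenase differed in their calls. Bckdha, the E1α subunit that carries the regulatory phosphorylation sites, read 5.73, 5.43, 6.66 and 6.45 in the controls and 4.98, 5.22 and 5.13 in the KO hearts. It fell by 0.96 ± 0.30 (SE, adjusted p = 0.0497), the weakest of the calls, and missed the threshold with quantile normalization (adjusted p = 0.0605) and in the authors' deposited value table (0.058). Bckdhb, the E1β subunit, read 4.46, 3.95, 5.03 and 4.85 in the controls and 3.45, 3.61 and 3.86 in the KO hearts. It fell by 0.93 ± 0.26 (SE, adjusted p = 0.0376), 1.91-fold, without overlap between the groups. Dbt, the E2 transacylase core, read 0.20, -0.42, 0.00 and 0.02 in the controls and -0.14, -0.62 and -0.61 in the KO hearts. KO 1 lay among the controls for Dbt, and the difference of -0.41 ± 0.19 (SE, adjusted p = 0.150) did not pass. Dld, the E3 subunit shared with pyruvate and oxoglutarate dehydrogenases, fell by 1.08 ± 0.22 (SE, adjusted p = 0.0171).

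For the pair that sets the activity of the complex, the probes gave different answers. Bckdk, the inactivating kinase, read 2.85, 2.75, 3.41 and 3.39 in the controls and 2.65, 2.48 and 2.6 in the KO hearts. All KO hearts lay below the controls by a small margin, and the difference of -0.52 ± 0.20 (SE, adjusted p = 0.0866) did not pass. Ppm1k, the activating phosphatase, was represented by 2 probes assigned to the same transcript. The brighter read 9.25, 9.04, 9.58 and 9.27 in the controls and 9.10, 9.29 and 9.19 in the KO hearts and did not differ past the threshold (-0.09 ± 0.15, adjusted p = 0.670); its sign turned with quantile normalization (0.10), in the authors' deposited table (0.17) and without control replicate 3 (0.00). The dimmer, well above background on all 7 arrays, read 2.21, 1.61, 2.41 and 2.49 in the controls and -0.17, -0.04 and 0.84 in the KO hearts. That probe was 1.97 lower in KO on the log2 scale (adjusted p = 0.0123 when probes are tested singly), with a gap between the groups. The within-heart difference between the probes averaged 7.11 ± 0.27 (SD, n = 4) in the control group, against 8.98 ± 0.55 (SD, n = 3) in KO, with no overlap; the pair was chosen after its values were seen, so no test is given. With the mean over both probes Ppm1k was at -1.03 (adjusted p = 0.0168). The call for Ppm1k thus differed between its probes, and probe sequences were not used here.

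All 4 genes specific to the leucine branch fell. Ivd, isovaleryl-CoA dehydrogenase, read 5.04, 4.78, 5.89 and 5.59 in the controls and 4.26, 4.30 and 4.49 in the KO hearts. It fell by 0.98 ± 0.27 (SE, adjusted p = 0.0336). Mccc1 and Mccc2 encode the subunits of the biotin-dependent methylcrotonyl-CoA carboxylase. Mccc1 read 4.15, 3.75, 4.49 and 4.47 in the controls and 3.08, 2.81 and 3.69 in the KO hearts and fell by 1.02 ± 0.26 (SE, adjusted p = 0.0293), and its other probe was lower by 0.85. Mccc2 read 1.79, 1.26, 1.87 and 1.97 in the controls and 0.51, 0.56 and 0.89 in the KO hearts. It fell by 1.06 ± 0.20 (SE, adjusted p = 0.0150), with a gap between the lowest control and the highest KO heart. Auh, the methylglutaconyl-CoA hydratase that follows, read 5.10, 4.16, 5.44 and 5.49 in the controls and 3.57, 4.05 and 3.94 in the KO hearts. Control 2 lay just above KO 2, and Auh fell by 1.20 ± 0.32 (SE, adjusted p = 0.0336).

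Of the 3 isoleucine enzymes only Acat1 passed. Acat1, the mitochondrial thiolase that also splits acetoacetyl-CoA in ketone use, read 5.44, 5.17, 6.05 and 5.91 in the controls and 4.73, 4.84 and 4.74 in the KO hearts. Its KO values lay close together, and it fell by 0.87 ± 0.22 (SE, adjusted p = 0.0283). Acadsb, the short branched-chain acyl-CoA dehydrogenase, read 2.76, 2.50, 3.23 and 2.99 in the controls and 2.11, 2.46 and 2.48 in the KO hearts. The groups were apart by a narrow margin, and the difference of -0.52 ± 0.20 (SE, adjusted p = 0.0898) did not pass. Hsd17b10, the dehydrogenase of a later step and also a part of mitochondrial RNase P, read 6.28, 5.98, 6.66 and 6.60 in the controls and 5.83, 6.06 and 5.91 in the KO hearts. Control 2 lay within the KO range, and the difference was -0.44 ± 0.19 (SE, adjusted p = 0.114).

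All 5 valine enzymes fell. Hibch, the hydrolase that releases hydroxyisobutyrate from CoA, read 4.69, 4.28, 4.73 and 5.0 in the controls and 3.22, 3.09 and 3.80 in the KO hearts. The lowest control lay above the highest KO heart, and Hibch fell by 1.30 ± 0.23 (SE, adjusted p = 0.0137), 2.47-fold. Acad8, isobutyryl-CoA dehydrogenase, read -1.50, -2.21, -1.66 and -1.54 in the controls and -3.39, -3.21 and -2.55 in the KO hearts. It fell by 1.32 ± 0.25 (SE, adjusted p = 0.0155), or by 0.70 with normexp background correction. Hibadh, which oxidises free hydroxyisobutyrate, read 5.38, 4.93, 5.90 and 6.00 in the controls and 4.57, 4.65 and 4.84 in the KO hearts. It fell by 0.86 ± 0.26 (SE, adjusted p = 0.0471) and missed the threshold with quantile normalization (adjusted p = 0.0525) and in the authors' deposited table (0.0544). Aldh6a1, the methylmalonate semialdehyde dehydrogenase that yields propionyl-CoA, read 4.61, 4.0, 5.52 and 5.27 in the controls and 3.35, 3.85 and 3.80 in the KO hearts. It fell by 1.18 ± 0.36 (SE, adjusted p = 0.0459), and its second probe was lower by 1.09. Abat, the GABA transaminase, read 2.6, 1.82, 2.72 and 2.48 in the controls and 0.59, 0.38 and 1.63 in the KO hearts. KO 3 stood nearest to the controls, and Abat fell by 1.54 ± 0.34 (SE, adjusted p = 0.0197), 2.91-fold, the second largest fall among the 28.

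From propionyl-CoA to succinyl-CoA, 6 of 7 genes fell. Pcca, the biotin-carrying subunit of propionyl-CoA carboxylase, read 2.49, 2.19, 3.20 and 3.31 in the controls and 1.63, 1.56 and 2.08 in the KO hearts. It fell by 1.04 ± 0.30 (SE, adjusted p = 0.0390). Pccb, the other subunit, read 1.22, 1.15, 2.09 and 1.98 in the controls and 0.95, 0.96 and 1.01 in the KO hearts. The KO hearts were nearly equal and just below control 2, and the difference of -0.64 ± 0.26 (SE, adjusted p = 0.0977) did not pass. Mcee, the methylmalonyl-CoA epimerase, read 3.19, 2.65, 3.35 and 3.43 in the controls and 1.85, 1.99 and 2.40 in the KO hearts and fell by 1.07 ± 0.23 (SE, adjusted p = 0.0185). Mut, the cobalamin-dependent mutase that RefSeq lists as Mmut, read 3.98, 3.51, 4.53 and 4.40 in the controls and 2.85, 2.73 and 3.21 in the KO hearts. It fell by 1.17 ± 0.26 (SE, adjusted p = 0.0206), and no KO heart reached the lowest control.

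The 3 genes of the member list that prepare cobalamin for the mutase all fell. Mmachc, which strips the upper ligand from incoming cobalamin, read 3.01, 2.75, 2.91 and 3.09 in the controls and 1.62, 1.57 and 2.18 in the KO hearts. It fell by 1.15 ± 0.18 (SE, adjusted p = 0.0124), the lowest adjusted p of the 28, and passed in all refits that left out a heart except the one without KO replicate 1. Mmaa, the GTPase that guards the mutase, read 4.10, 4.01, 4.13 and 4.43 in the controls and 3.12, 2.92 and 3.52 in the KO hearts. It fell by 0.98 ± 0.18 (SE, adjusted p = 0.0148); its dimmer probe was lower by 1.51 but was above background in only 1 KO heart. Mmab, the adenosyltransferase that makes the mutase cofactor, read 0.82, 0.52, 1.01 and 1.11 in the controls and -0.52, -0.74 and 0.37 in the KO hearts. It fell by 1.16 ± 0.28 (SE, adjusted p = 0.0241), and its other probes were lower by 0.95 and 1.25. Cd320, the receptor for transcobalamin-bound cobalamin, fell by 0.64 ± 0.14 (SE, adjusted p = 0.0193). Mmadhc, which directs cobalamin to its user enzymes, was at -0.14 ± 0.15 (adjusted p = 0.494), Lmbrd1 of the lysosomal exporter at -0.52 ± 0.20 (adjusted p = 0.0821) and methionine synthase Mtr at -0.63 ± 0.26 (adjusted p = 0.100).

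Both ketone-use genes fell, and Bdh1 showed the largest fall of the 28. Bdh1, the mitochondrial enzyme that turns hydroxybutyrate into acetoacetate, read 6.35, 5.39, 5.80 and 6.10 in the controls and 3.42, 3.84 and 4.91 in the KO hearts. KO 3 stood apart from the other KO hearts toward the controls without reaching them. Bdh1 fell by 1.85 ± 0.37 (SE, adjusted p = 0.0164), 3.61-fold, and its other probes were lower by 1.91 and 2.34. Oxct1, the CoA transferase that activates acetoacetate, read 7.58, 6.98, 7.73 and 7.84 in the controls and 6.34, 6.14 and 6.86 in the KO hearts. It fell by 1.09 ± 0.26 (SE, adjusted p = 0.0229), 2.12-fold. Of the 7 genes with several probes, Bcat1 and Ppm1k had probes that differed in their call; in the others every probe was lower and passed. Of all 38 probes of the 28 genes, 29 were lower and 1, of Bcat1, was higher when tested singly.

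Among 40 other genes of these pathways 36 were measured, of which 13 fell and 6 rose (median -0.53). Leaving out hearts lowered these limma counts to 0 and 0 without KO 1 (13 and 6 at an unadjusted p under 0.05), 0 and 1 without KO 2 (15 and 7 unadjusted), 5 and 3 without control 4, 6 and 3 without control 3, and 11 and 3 without KO 3; without the filter on dim probes they were 1 and 1. The enzymes that share steps with the members were among the falls: Echs1 by 0.71 ± 0.20, Hadha by 1.08 ± 0.30, Acads by 0.90 ± 0.25, Aldh5a1 by 0.79 ± 0.21, and Got2, the mitochondrial aspartate aminotransferase, by 0.63 ± 0.18 (SE). Sucla2 and Suclg1, subunits of the succinyl-CoA ligase that receives the propionate carbons, fell by 0.90 ± 0.19 and 0.89 ± 0.17; Suclg2, the remaining subunit, was at -0.47 ± 0.24, overlapped between groups and did not pass (adjusted p = 0.164). The malonyl-CoA enzymes Mlycd and Acsf3 fell by 1.11 ± 0.25 and 0.94 ± 0.26.

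The genes that rose were membrane carriers and cytosolic enzymes. Slc7a5 and Slc3a2 encode the chains of LAT1, a plasma membrane exchanger of large neutral amino acids that include leucine. Slc7a5 read -2.22, -1.64, -2.62 and -3.02 in the controls and 0.22, -0.07 and -1.22 in the KO hearts, all KO hearts above all controls. This brighter of its 2 kept probes rose by 2.02 ± 0.42 (SE, adjusted p = 0.0176) and by 1.40 with normexp. The mean over both probes was at 0.77 and did not pass (adjusted p = 0.0726), so the other probe was lower in KO. The rise of Slc7a5 thus rests on 1 probe. Slc3a2, the heavy chain, rose by 0.93 ± 0.18 (SE, adjusted p = 0.0161). Slc7a8, the related LAT2, rose by 1.45 ± 0.43 (SE, adjusted p = 0.0431). Aacs, which activates acetoacetate in the cytosol for lipid synthesis, read -0.04, 0.32, -0.44 and -0.33 in the controls and 1.58, 1.12 and 1.27 in the KO hearts and rose by 1.45 ± 0.21 (SE, adjusted p = 0.0123). Bdh2, a cytosolic dehydrogenase, rose by 1.03 ± 0.31 (SE, adjusted p = 0.0468) although control 2 lay within the KO range. Among the monocarboxylate carriers, which move lactate and ketone bodies, Slc16a3 rose by 2.37 ± 0.63 (SE, adjusted p = 0.0314). Slc16a7 fell by 1.31 ± 0.27 (SE, adjusted p = 0.0171), and Slc16a1 was at -0.55 ± 0.19 (adjusted p = 0.0634).

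A transcription factor and a carrier often named with this pathway did not pass, the factor by a small margin. Klf15, a factor known to promote branched-chain amino acid breakdown in heart muscle, read 1.03, -0.08, 0.95 and 0.72 in the controls and -0.76, -0.33 and 0.11 in the KO hearts. Control 2 lay within the KO range, and the difference was -0.98 ± 0.31 (SE, adjusted p = 0.0523); it passed with normexp (adjusted p = 0.0381), with probes above background on all arrays (0.0422), with trend and robust variance (0.0377), with slide row as a block (0.0261), and in 2 of the 7 refits without a heart. Slc25a44, the mitochondrial carrier of branched-chain amino acids, was at 0.29 ± 0.18 (adjusted p = 0.268), and glutamate dehydrogenase, Glud1, at 0.00 ± 0.13 (adjusted p = 0.989). Of the remaining pathway genes, Hmgcll1 and Oxct2a were well above background in no heart, and Mtrr and Echdc1 were below the filter.

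**Figure D3:**
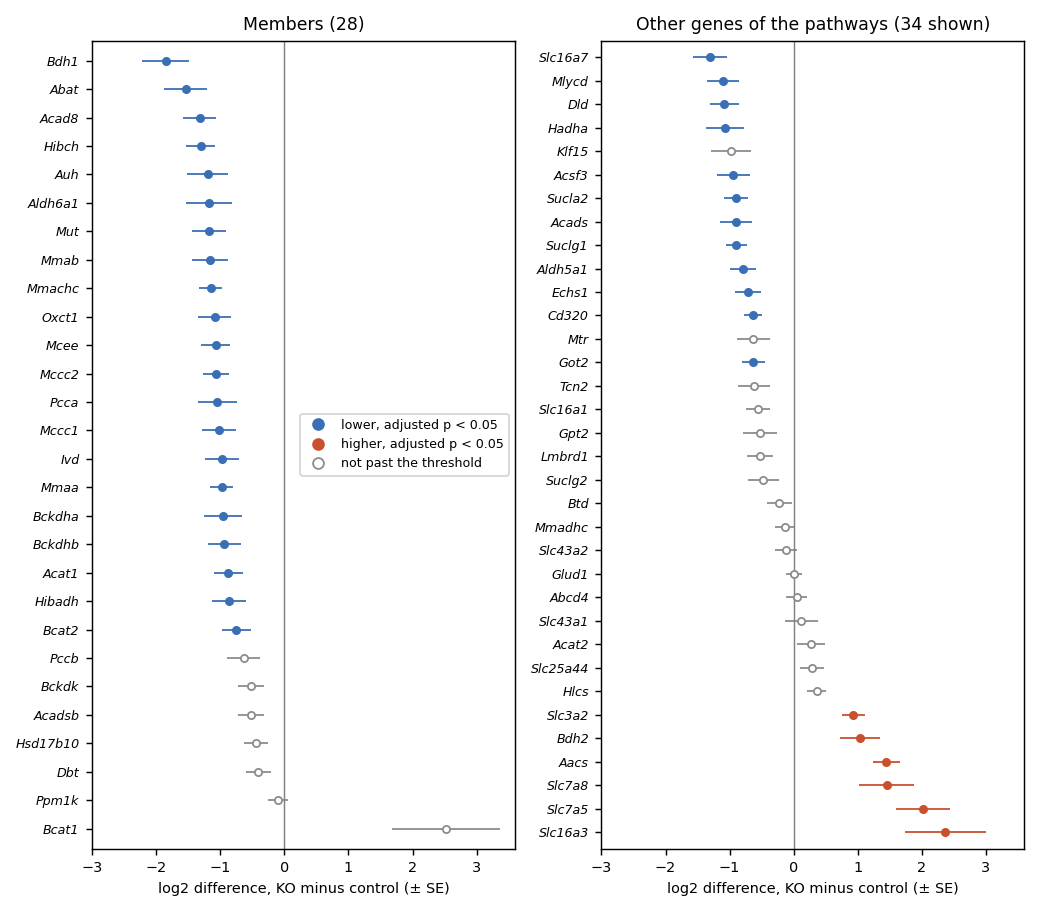
Difference between the group means on the log2 scale (KO minus control) with limma's standard error, for the 28 genes (left) and 34 of the other pathway genes measured (right), ordered by size; filled symbols passed an adjusted p of 0.05. On the left 21 genes are filled and lower; among the 34 shown on the right 12 are lower and 6 higher.

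As many of the genes were lower together, their promoters were searched for shared motifs. RefSeq promoters on build GRCm38.p6 were at hand for 24 of the 28 genes, in 31 windows that cover the 250 bases before a listed start. A window is printed for each of 5 genes. These are Bcat1 and Bcat2, whose fitted differences had opposite signs, and Hibch, with the most repeated GC box of those shown. The others are Mccc2, the member with an E-box, and Bdh1, with the largest fall. Capitals mark the GC box GGGCGG, the CACCC box GGGTGG and the E-box CACGTG on either strand. They lie at chr6:145076158-145076407, minus strand (Bcat1), chr7:45569903-45570152, plus strand (Bcat2), chr1:52844788-52845037, plus strand (Hibch), chr13:100015640-100015889, minus strand (Mccc2) and chr16:31428503-31428752, plus strand (Bdh1), and each is written 5′ to 3′ along its gene, ending just before the start.
Bcat1: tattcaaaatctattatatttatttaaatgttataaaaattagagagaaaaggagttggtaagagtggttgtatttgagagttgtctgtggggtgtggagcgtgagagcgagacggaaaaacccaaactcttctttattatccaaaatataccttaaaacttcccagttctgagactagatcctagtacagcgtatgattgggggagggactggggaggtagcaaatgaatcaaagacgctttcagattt
Bcat2: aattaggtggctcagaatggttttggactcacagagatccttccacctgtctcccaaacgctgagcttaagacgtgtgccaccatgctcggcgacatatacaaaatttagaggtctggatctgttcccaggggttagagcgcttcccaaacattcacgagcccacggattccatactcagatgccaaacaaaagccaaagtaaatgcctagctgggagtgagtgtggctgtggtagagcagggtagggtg
Hibch: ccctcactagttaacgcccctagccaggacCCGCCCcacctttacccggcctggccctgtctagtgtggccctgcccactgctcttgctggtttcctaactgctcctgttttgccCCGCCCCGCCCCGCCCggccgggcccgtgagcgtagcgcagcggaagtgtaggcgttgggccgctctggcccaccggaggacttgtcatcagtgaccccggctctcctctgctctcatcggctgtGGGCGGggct
Mccc2: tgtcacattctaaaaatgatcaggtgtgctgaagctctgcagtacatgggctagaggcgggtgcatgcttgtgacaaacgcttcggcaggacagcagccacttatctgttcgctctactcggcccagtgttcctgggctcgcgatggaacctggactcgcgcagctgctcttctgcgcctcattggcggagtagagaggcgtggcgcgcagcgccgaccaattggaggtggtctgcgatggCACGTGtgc
Bdh1: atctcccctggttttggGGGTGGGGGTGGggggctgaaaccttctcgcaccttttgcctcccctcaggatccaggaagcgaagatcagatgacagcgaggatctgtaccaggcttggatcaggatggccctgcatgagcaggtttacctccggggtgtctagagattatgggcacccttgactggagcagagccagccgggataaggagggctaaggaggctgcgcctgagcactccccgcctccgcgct

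Matches are given as a description, with no test. On both strands, GGGCGG was in 15 of the 31 windows (48.4%) against 32.74% of all 32851 windows of that length, and GGGTGG in 9 (29.0%) against 28.08%. The median GC content was 54.8% in the 31 windows and 52.4% in all. The E-box was in 1 window, of Mccc2 (3.23% against 6.02%). The estrogen-related receptor element TCAAGGTCA, the NRF1 palindrome, the cyclic AMP element TGACGTCA and the amino acid response element TTGCATCA were in 0 of the 31 windows, and in 0.39%, 0.78%, 1.55% and 0.79% of all. The printed windows of Bcat1 and Bcat2 held none of the letters searched. Bcat1, Bcat2 and Bdh1 each had another window, not printed, that held none of them either.

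Other mitochondrial fuel genes were lower as well. In the list for fatty acid oxidation 27 of 32 genes fell and 0 rose, with a median of -0.83, and of 31 citrate cycle and pyruvate dehydrogenase genes 25 fell and 0 rose, with a median of -0.87. The counts of falls were 0 and 0 without KO 1 (27 and 26 at an unadjusted p under 0.05, limma), 5 and 3 without KO 2, and 10 and 16 without control 4. The fatty acid oxidation count was also 12 without control 3, 14 without KO 3 and 16 without control 1, and without the filter on dim probes the counts were 5 and 9. These lists share Echs1, Hadha, Acads, Dld, Sucla2, Suclg1 and Suclg2 with the pathway list above. The difference between the lists was not tested, so the larger median of the 28 genes is given as a description.

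**Figure D4:**
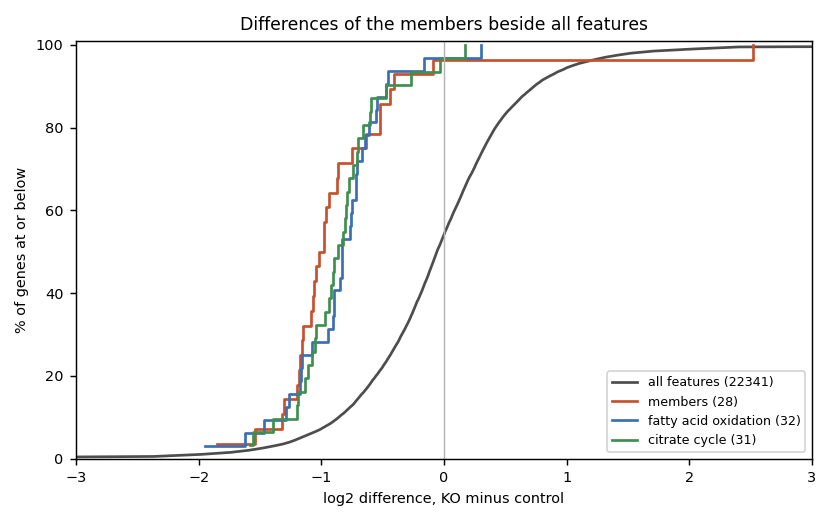
Share of genes (y axis, %) whose log2 difference, KO minus control, lies at or below the value on the x axis, for the 28 genes, 32 fatty acid oxidation genes, 31 citrate cycle genes and all 22341 features. At their medians the 3 lists (-1.0, -0.83 and -0.87) lie left of all features (-0.06), and in the far left tail the curve of all features lies left of the lists.

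Markers of several cell types moved in the same hearts, and their part in the results was not tested. Of 18 cardiomyocyte markers 11 fell and 0 rose, with a median of -0.80, and their summed signal, in units of the array's 75th percentile, was 8560 to 12700 in controls and 6640 to 7600 in KO hearts. That of the 28 genes was 1050 to 1710 in controls and 898 to 1040 in KO hearts. The largest part of this sum comes from the brighter probe of Ppm1k, which did not pass (-0.09, adjusted p = 0.670 by limma). Of 14 monocyte and macrophage markers measured 4 rose, with a median of 0.84 and a summed signal of 115 to 131 in controls against 126 to 183 in KO. Of 9 neutrophil markers measured 7 rose, with a median of 3.04, and Ngp was well above background in no heart. Cxcr2, Mmp8, Mmp9, Fpr1 and Fpr2 passed the filter only through the KO arrays, so this count and median depend in part on the filter. The mean gene-centred log2 value of the neutrophil markers was -1.45 to -0.52 in controls and 0.52 to 1.94 in KO hearts. Their summed signal, 114 to 177 in controls and 102 to 179 in KO, comes mostly from the probe of Csf3r, which did not pass (-0.23, adjusted p = 0.442). Of 20 hepatocyte markers 15 were measured and 13 fell, with a median of -3.72, the summed signal being 8.44 to 20.2 in controls and 4.35 to 5.76 in KO hearts. Alb, Fabp1 and Cps1 were not well above background on any KO array, and the lowest of the control sums was that of control 2. Alb, Fabp1, Fgb, Fgg, Mup17, Mup18, Mup19, Cyp2e1, Saa2, Kng1 and Ttr passed the filter only through the control arrays. The hepatocyte count and median thus depend in part on the filter. Of 7 erythroid markers measured 5 fell (960 to 1400 in KO, 1390 to 1950 in controls). Among 6 adipocyte markers measured 1 fell (207 to 287 in controls, 153 to 215 in KO), while Plin1, Lep and Ucp1 were well above background in no heart. Of 14 fibroblast markers 3 fell and 1 rose (594 to 812 in controls, 417 to 851 in KO), and of 12 endothelial markers 1 fell (274 to 404 in controls, 231 to 336 in KO).

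**Figure D5:**
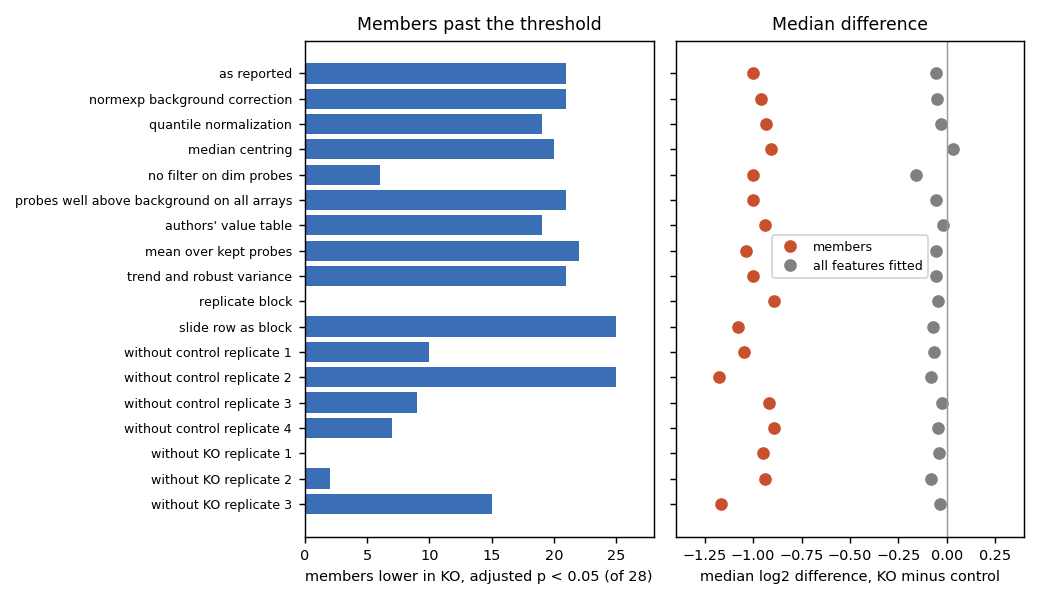
Number of the 28 genes lower in KO at an adjusted p of 0.05 (left, bars from 0) and median log2 difference of the 28 genes and of all features fitted (right) under each way of processing and without each heart. The count runs from 0 to 25, while the median of the genes stays between -1.18 and -0.89.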

How the data were processed

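Each deposited scanner file lists 62976 spots with their intensity, extracted by the authors with Agilent Feature Extraction 11.0.1.1 from 100 ng of labelled RNA, per the file headers and the labels. The background-subtracted processed intensity, per the file headers, was divided by the 75th percentile of its own array, control spots aside, and put on the log2 scale. The deposited value table holds log2 values of the authors, centred on each probe's median (100% of rows); which percentile or target set its scale is not known. Its columns correlated with the scanner values at 0.986 to 0.998, and their medians were 0.00793 in control 4, -0.0021 in KO 2 and 0 in the other hearts. Outlier spots were left out, and 39 features lacked a value on some array. A probe was kept where at least 3 arrays of 1 group read it well above background (26571 of 55681; 28026 probes matched 1 RefSeq symbol). The brightest kept probe stood for a gene. Groups came from the titles and were compared with limma 3.58.1 in R 4.3.3, which was tested on simulated data. The median spot intensity of the deposited files was used for normexp (offset 50), since no mean is given. Members and lists were chosen with earlier results of these data known. All 28 genes are named, with other pathway genes that passed and fixed ones (Klf15, Slc25a44, Dld, Slc16a1), except some that are not reported here; Mmadhc, Lmbrd1, Mtr and Glud1 were added after their values were seen. The number of arrays limits the precision.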

Additional observations from a re-analysis of the deposited data

How the results depend on the processing

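The fall of the genes kept its direction under every alternative run, and its calls did not. The 21 genes called lower stayed below 0 in all 17 alternatives. Without a filter on dim probes 6 of them passed. In that fit 48809 features were tested, of which 975 (2%) were lower and 440 higher. With replicate number as a block, 0 passed (21 at an unadjusted p under 0.05, limma), among 3 features lower and 6 higher. The control without a same-numbered KO heart does not inform this fit, whose median for the genes (-0.89) equalled that without this control. Same-numbered hearts correlated at 0.184, -0.223 and -0.197 in their deviations from the group means. Hearts of different number correlated at 0.093 to 0.392 within a slide row and at -0.316 to 0.172 across rows. Whether the numbers pair the hearts cannot be decided from so few values, which are mixed with slide row. With slide row as a block 4816 features were lower and 3585 higher. Bcat1 was the 1 gene higher with normexp, with probes above background on all arrays, with the mean over probes and with slide row as a block. With replicate number as a block the other pathway, fatty acid oxidation and citrate cycle lists had 0 genes lower (15, 23 and 25 at an unadjusted p under 0.05, limma). Leaving out single hearts gave 0 to 25 genes lower and 0 to 1 higher, and 49 to 4128 features lower and 20 to 2843 higher. The cause of these shifts was not tested. Dim probes limit Bcat1, Acad8 and Slc7a5, whose differences were smaller with normexp.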
